A study of Mus musculus with 18 samples.

Results

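The nuclear-encoded subunits of the oxidative phosphorylation system were described in bone marrow-derived macrophages (BMDMs), which are macrophages grown from bone marrow with the growth factors of L929-conditioned medium. The members were taken by gene symbol, as all symbols that begin with Ndufa, Ndufb, Ndufc, Ndufs or Ndufv and a digit, the 4 symbols Sdha to Sdhd, and all symbols that begin with Uqcr, Cox4 to Cox8 or Atp5 and a letter. The rule found 84 of the 24485 genes listed, of which 37 carry complex I symbols, 4 complex II, 8 complex III, 18 complex IV and 17 complex V. The rule uses no measured value. All 18 libraries came from Il10-/- mice on the C57BL/6J background, so every group, the controls included, lacked the Il10 gene product, and wild-type cells were not analysed here. Per the study's methods, the mice that gave the bone marrow were males aged 12 weeks. Each of the 6 groups held 3 libraries, labelled as matched samples of 3 mice. Unstimulated cells received neither agent, the JQ1 group received 500 nM (+)-JQ1 and the IL-10 group 10 ng/mL IL-10 for 12 hours, and phosphate-buffered saline was then added for 4 hours. The remaining groups, named LPS, LPS + JQ1 and LPS + IL-10 here, had these same pretreatments followed by 50 ng/mL lipopolysaccharide for 4 hours. The labels call the cells without JQ1 or IL-10 untreated, whereas a vehicle is named in the study's methods for the cells pretreated before LPS. If unstimulated cells lacked this vehicle, it cannot be told apart from LPS. The same holds for JQ1 or IL-10 alone against unstimulated cells, and for their interactions with LPS, if these agents were given in it. (+)-JQ1 is a small molecule that occupies the bromodomains of the BET proteins, which read acetylated histones. IL-10 is an anti-inflammatory cytokine and LPS is a bacterial cell wall component sensed by Toll-like receptor 4. The comparisons address how LPS changes the transcripts of the respiratory chain and how BET inhibition and IL-10 alter that response.

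Oxidative phosphorylation takes place at the inner mitochondrial membrane. Complex I oxidises NADH and complex II oxidises succinate, both pass electrons to ubiquinone, complex III passes them on to cytochrome c and complex IV to oxygen, and complex V uses the resulting proton gradient to make ATP. Most subunits are encoded in the nucleus and the remainder in mitochondrial DNA, so the complexes are assembled from the products of both genomes. Macrophages stimulated with LPS are known to shift towards glycolysis and to accumulate succinate, the substrate of complex II. None of the 13 subunits encoded in mitochondrial DNA was listed in the files under its mouse symbol, and they were not analysed here.

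The totals of expected counts ran from 6781952 to 28289498 per library, with the lowest in replicate 2 of the unstimulated cells. The difference in counts between 2 libraries of a group was measured as chi-square per degree of freedom. Between replicate 3 and the other replicates it was 26.1 and 30.5 with LPS, and 30.0 and 28.8 with LPS + IL-10. All other pairs lay at 4.14 to 11.2. Macrophage markers were present throughout, as the summed abundance of 8 of the 9 listed markers was 14235 to 29328 TPM (a length-scaled relative abundance with the same sum in every library). The T cell marker Cd3e reached at most 0.090 TPM, and the neutrophil marker Ly6g had no count. The 5 neutrophil markers together were at 21.1 to 74.0 TPM in unstimulated cells, 6.76 to 13.4 with JQ1, 32.4 to 45.9 with LPS and 10.7 to 23.9 with LPS + JQ1, and their part in the results was not tested. Nearly all of this sum came from S100a8 (2.91 to 37.6 TPM) and S100a9 (3.85 to 40.85 TPM). Mpo reached at most 0.090 TPM and Elane 0.15 TPM, so the sum is no measure of a neutrophil fraction. The 8 macrophage markers summed to 23480 to 25198 TPM in unstimulated cells, 29165 to 29328 with JQ1, 14235 to 15688 with LPS and 19631 to 22632 with LPS + JQ1, and their part was not tested either. Most of this sum came from Lyz2 (9721.6 to 24852.5 TPM), while the next highest marker, Cd68, reached at most 2156.8 TPM. The macrophage sum thus mainly follows Lyz2 and is no measure of a macrophage fraction. Transcripts of the Il10 gene were listed at 3.20 to 14.6 TPM, and without wild-type libraries this level could not check the genotype. In bulk RNA, fewer cells of a type and less RNA per cell cannot be told apart.

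Of the 84 members, 75 averaged 100 or more normalised counts (expected counts divided by the size factor of the library, in the median-of-ratios scaling of DESeq2). A further 2 lay between 10 and 100, and 7 below 10. In TPM, which allows levels of different genes to be compared, the members of unstimulated cells summed to 13654 ± 649 (SD, n = 3). The highest was Cox4i1, the common isoform of complex IV subunit 4, at 638 TPM, followed by Cox6b1 at 555, Cox8a at 531, Cox7c at 471 and Cox6a1 at 467. The median member of complex V was at 247 TPM, that of complex IV at 150, of complex III at 142, of complex II at 116 and of complex I at 90.7. Complex I subunits were thus the least abundant per gene in the median, although 37 symbols made up 29.4% of the summed member TPM.

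The isoforms known from muscle, lung or germ cells were close to absent. Cox7b2, Cox8b and Cox8c had no count in any of the 18 libraries, which allows up to 3 counts per library. Cox4i2, the hypoxia- and lung-associated isoform, made up at most 0.0942% of the TPM of Cox4i1 and Cox4i2 together, and Cox6a2, the heart and muscle isoform, at most 0.644% of the Cox6a pair. Ndufa4l2, a paralogue of Ndufa4, stayed at or below 0.0752% of that pair. An exception in degree was Cox7a1, the heart and muscle isoform of subunit 7a. It made up 4.44% ± 0.55 (SD, n = 3) of the Cox7a1 and Cox7a2 TPM in unstimulated cells and 11.5% ± 3.6 (n = 3) with JQ1.

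The members changed direction with the scaling of the libraries, so each change is given against the change of all genes. They made up 0.497% to 0.529% of the expected counts in unstimulated cells, 0.478% to 0.506% with JQ1 and 0.487% to 0.517% with IL-10. With LPS they made up 0.340% to 0.357%, with LPS + JQ1 0.406% to 0.426% and with LPS + IL-10 0.347% to 0.371%. The LPS libraries lay below all unstimulated libraries, and the LPS + JQ1 libraries lay between, with no overlap (exact permutation test, two-sided, p = 0.10 for each, the smallest value that 3 against 3 libraries allow). The size factor per fixed number of counts, in arbitrary units, was 0.0872 to 0.0908 in unstimulated cells and 0.0461 to 0.0474 with LPS, so a given share of counts became a higher normalised count with LPS.

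In the Wald test of DESeq2, which used these size factors, the median log2 fold change with LPS was 0.27 over the 80 members tested and -0.07 over all 14965 genes tested. After scaling by total counts the medians were -0.66 and -1.02, and with limma on log2(TPM + 1) they were -0.52 and -0.69. The distance of the members above the median gene was 0.34, 0.36 and 0.17. Another size factor moves all genes of a contrast alike, so the first 2 distances are nearly equal by construction. The median gene also depends on which genes are counted. Without the filter of at least 1 TPM, limma on log2(TPM + 1) gave -0.49 over members and -0.26 over all genes, so that the members lay below the median gene, and 17 of 81 members were above it. The direction of the members themselves turned between the first and the other scalings.

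**Figure D1:**
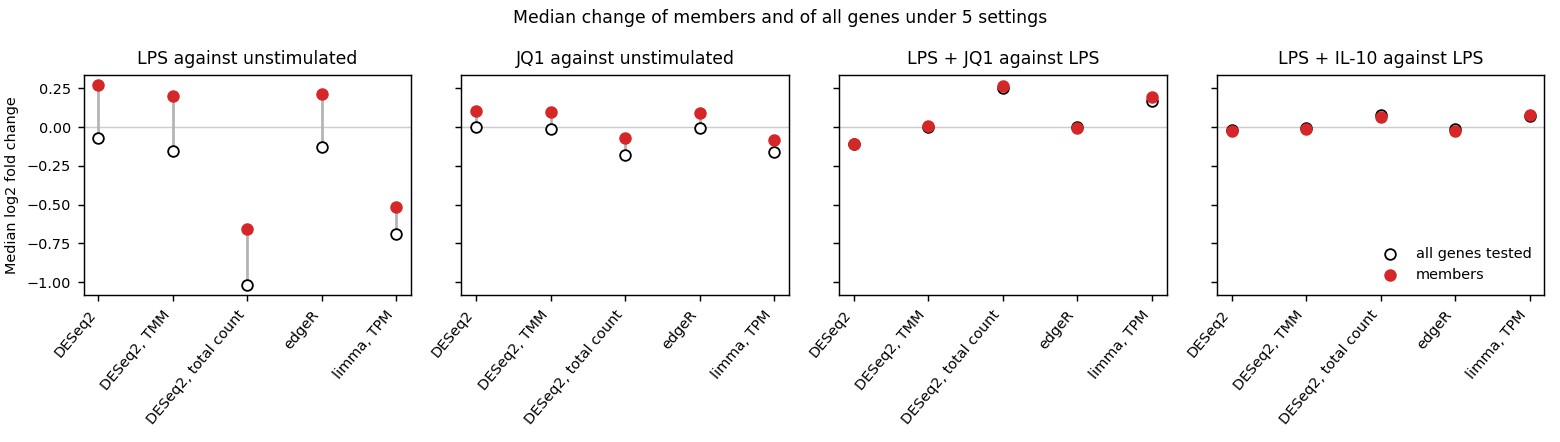
Median log2 fold change of the members (filled red points) and of all genes tested (open points) in 4 comparisons under 5 settings. With LPS both medians shift with the setting while the members stay above all genes in these 5 settings (0.27 against -0.07 with DESeq2, -0.66 against -1.02 with total-count scaling), whereas in LPS + JQ1 against LPS the pairs of points nearly coincide.

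The balance between the complexes is a measure that does not depend on the scaling between libraries. Complex I made up 29.1% to 29.8% of the summed member TPM in the 3 unstimulated libraries and 25.0% to 25.5% in the 3 LPS libraries. Complex II made up 3.67% to 3.74% without and 2.85% to 3.21% with LPS. Complex IV averaged 29.3% ± 0.49 without and 32.8% ± 1.0 (SD, n = 3) with LPS. None of these 3 pairs of groups overlapped (exact permutation tests, two-sided, p = 0.10, the smallest that 3 against 3 unpaired libraries allow). Complex III, at 9.89% ± 0.28 and 9.92% ± 0.28 (SD, n = 3), and complex V, at 27.7% ± 0.64 and 29.0% ± 0.81, overlapped between unstimulated and LPS cells. A share of summed TPM is weighted towards abundant transcripts, and the largest gains came from Cox5a (1.15 percentage points), Atp5b (1.12), Atp5a1 (0.82) and Cox6b1 (0.75), while Cox7a2l (-0.90), Atp5g2 (-0.64), Ndufa6 (-0.62), Uqcr11 (-0.56) and Sdhb (-0.53) lost most.

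**Figure D2:**
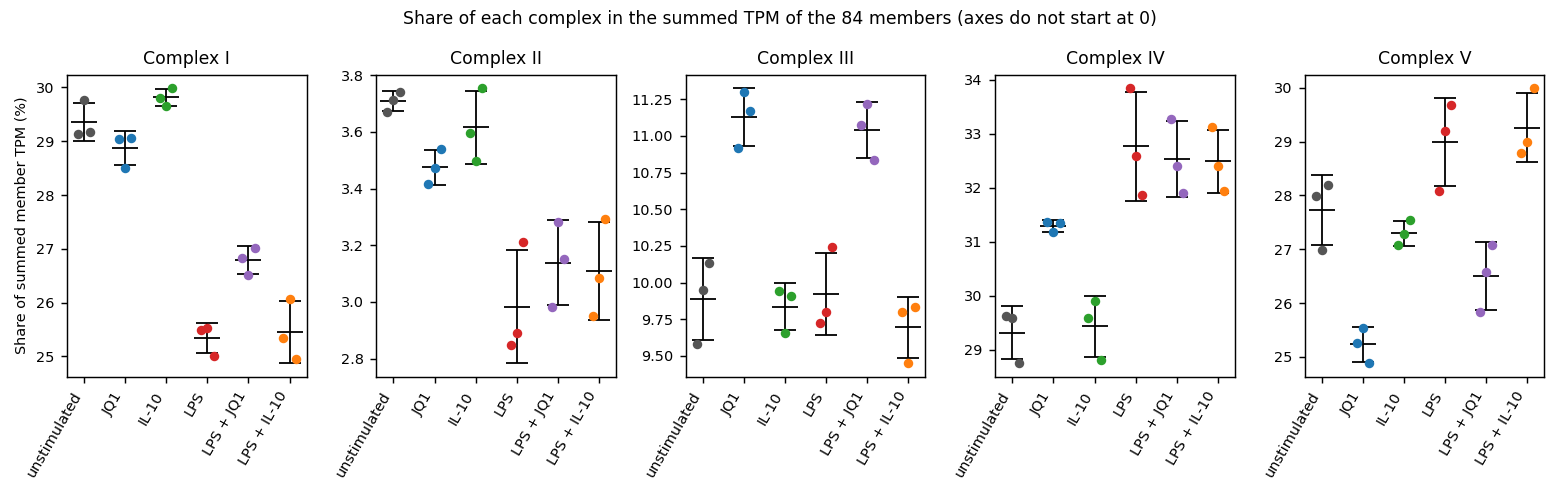
Share of each complex in the summed TPM of the 84 members, in percent, for each of the 18 libraries (points) with the group mean and SD (n = 3). The vertical axes do not start at 0. Complex I lies at 29.4% in unstimulated and 25.3% in LPS cells and complex IV at 29.3% and 32.8%, and complex III is higher and complex V lower in the JQ1 libraries without and with LPS.

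With LPS against unstimulated cells, 40 of the 80 tested members were higher and 10 lower at an adjusted p under 0.05 (DESeq2, Benjamini-Hochberg over all genes tested). Over all genes 31.6% were higher and 32.9% lower, so the members held fewer falls and more rises than the background. Under total-count scaling 1 member, Cox5a of complex IV, was higher and 71 were lower, beside 15.2% higher and 60.5% lower of all genes. The counts by complex given next are those of DESeq2 with median-of-ratios scaling. Called in the same direction in all 5 of DESeq2, DESeq2 with TMM factors, DESeq2 with total-count scaling, edgeR and limma on TPM were 1 rise, Cox5a, and 10 falls of the 78 members tested in all of them, where 58.3% of all genes were called in either direction and 40.2% were called lower. The 10 falls were Atp5sl, Atp5s, Cox7a2l, Sdhb and the complex I genes Ndufa6, Ndufs7, Ndufv3, Ndufs8, Ndufb10 and Ndufb11.

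In complex I, 12 of 36 tested members were higher and 6 lower with DESeq2, beside 31.6% and 32.9% of all genes. The share of rises was thus near that of all genes, and the median was 0.15. The core subunits carry the flavin, the iron-sulphur clusters and the quinone site. Ndufs7, a core subunit beside the quinone site, was at 406, 446 and 424 normalised counts in unstimulated cells and fell to 314, 316 and 260 with LPS, a log2 fold change of -0.51 ± 0.11 (SE, adjusted p = 7.7e-06). The LPS libraries all lay below the unstimulated libraries. Ndufs8, an iron-sulphur subunit of the same arm, fell by 0.38 on the log2 scale (SE 0.11, adjusted p = 0.0014). Ndufs1, the largest subunit, was at 0.21 ± 0.10 with an adjusted p just under the threshold and overlapping groups, and its expected counts were not whole in 17 of the 18 libraries, so some of its reads were divided with another gene. Ndufv1, Ndufv2 and Ndufs3 were at 0.10, 0.16 and -0.03 and did not pass the test.

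Among the accessory subunits of complex I, Ndufs4, which is needed for the stability of the NADH-oxidising arm, stood out. It was at 208, 222 and 239 normalised counts in unstimulated cells and at 457, 424 and 468 with LPS, with no overlap and a log2 fold change of 1.01 ± 0.12 (adjusted p = 1.2e-16). Under total-count scaling its value was 0.08, which did not pass. Ndufa6 went the other way, from 424, 562 and 500 to 335, 376 and 308 (-0.53 ± 0.11, adjusted p = 4.0e-06), and at -1.45 under total-count scaling. Ndufa4 carries a complex I symbol and is now assigned to complex IV. It was higher by 0.38, like the complex IV members.

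Complex II showed unequal changes of its 4 subunits. Sdhb, the iron-sulphur subunit, was at 1128, 1133 and 1195 normalised counts in unstimulated cells and 892, 873 and 834 with LPS (-0.41 ± 0.07, adjusted p = 6.7e-08). The membrane anchors Sdhc and Sdhd were higher by 0.23 ± 0.08 and 0.29 ± 0.09 (adjusted p = 0.0077 and 0.0017), values that turned to -0.70 and -0.64 under total-count scaling. Sdha, the flavoprotein that oxidises succinate, was at 1911, 2053 and 2090 without and 2029, 2141 and 2244 with LPS and did not pass the test. The ratio of Sdhb to Sdhd TPM, which is free of the library scaling, went from 1.90 ± 0.10 to 1.17 ± 0.16 (SD, n = 3), and the 3 LPS libraries lay below all 3 unstimulated libraries (exact permutation test, two-sided, p = 0.10, the smallest possible). Sdhb and Sdhd are the complex II genes furthest apart with LPS, so this separation restates their changes and is no further support. With JQ1 alone the ratio was 1.40 ± 0.11 (SD, n = 3), also below all unstimulated libraries.

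In complex III, 6 of 8 members were higher and none was lower with DESeq2, beside 31.6% and 32.9% of all genes. Uqcrfs1, the Rieske iron-sulphur protein that takes electrons from ubiquinol, was at 602, 609 and 614 normalised counts and rose to 1100, 1017 and 1022 (0.78 ± 0.06, adjusted p = 1.5e-32, and -0.15 under total-count scaling). The core proteins Uqcrc1 and Uqcrc2 were higher by 0.30 and 0.40. Uqcrb, a quinone-binding subunit, was higher by 0.68, and the small subunits Uqcr10 and Uqcr11 were at 0.07 and -0.04 and did not pass.

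In complex IV, 10 of 15 tested members were higher and 1 was lower with DESeq2, beside 31.6% and 32.9% of all genes. The median of complex IV, 0.49, was 0.56 above the median gene. Cox5a, a nuclear subunit on the matrix side, was at 636, 636 and 611 normalised counts in unstimulated cells and 1432, 1478 and 1618 with LPS, so the groups were far apart. Its log2 fold change was 1.27 ± 0.08 (adjusted p = 5.7e-57) and stayed at 0.34 under total-count scaling (adjusted p = 0.00011). Cox6c, at 879, 953 and 1238 normalised counts with LPS, and Cox7a2 followed at 0.78 and 0.77, and Cox4i1 was at 0.37. These 3 turned negative under total-count scaling, at -0.15, -0.15 and -0.56. The exception was Cox7a2l, which despite its symbol is a factor that joins complexes III and IV into supercomplexes. It was at 1817, 2038 and 1930 without and 1388, 1459 and 1435 with LPS (-0.43 ± 0.07, adjusted p = 1.8e-09).

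In complex V, 10 of 17 members were higher and 2 lower with DESeq2, beside 31.6% and 32.9% of all genes. The catalytic subunits Atp5a1 and Atp5b, the alpha and beta subunits of the F1 head, rose side by side. Atp5b was at 4609, 4506 and 4497 normalised counts in unstimulated cells and 8449, 8064 and 7677 with LPS (0.83 ± 0.05, adjusted p = 4.1e-51). Atp5a1 was at 4552, 4443 and 4474 and rose to 7771, 7935 and 8046 (0.82 ± 0.04, adjusted p = 7.4e-99). Under total-count scaling they were at -0.10 and -0.11, close to constant as a share of reads while the median gene was at -1.02. The central stalk subunits Atp5c1 and Atp5d, at 0.06 and 0.03, did not pass the test. Atp5e of the same stalk was at 684, 592 and 726 normalised counts without and 844, 953 and 808 with LPS, with no overlap. In TPM it went the other way, from 440, 347 and 446 to 293, 322 and 311. All 4 peripheral stalk genes (Atp5f1, Atp5h, Atp5j and Atp5o) were higher, by 0.23 to 0.64, with values of -0.70 to -0.29 under total-count scaling. 

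Both falls within complex V were of genes that encode no subunit. Atp5sl, now named Dmac2 and tied to complex I assembly, was at 214, 206 and 197 normalised counts in unstimulated cells and 42.4, 36.2 and 27.0 with LPS. That was the lowest log2 fold change of all members, -2.56 ± 0.19 (adjusted p = 7.7e-39), or 5.88-fold lower. Atp5s, now Dmac2l and known as coupling factor B, was at 10.8, 28.8 and 16.1 and at 1.41 to 6.20 with LPS (-1.99 ± 0.57, adjusted p = 0.0010), at counts low enough that the size is uncertain. Together with Cox7a2l, these 3 genes were the falls outside complexes I and II in DESeq2.

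The 3 genes for the c subunit of complex V encode the same mature protein from different precursors, and their shares, which are free of the library scaling, differed between treatments. Atp5g3 made up 29.2%, 27.9% and 31.3% of their summed TPM in unstimulated cells, 36.7%, 35.7% and 37.9% with JQ1, 38.9%, 39.5% and 43.8% with LPS, and 44.9%, 46.7% and 44.0% with LPS + JQ1. Each of JQ1 and LPS lay apart from unstimulated cells, and LPS + JQ1 lay apart from LPS (exact permutation tests, two-sided, p = 0.10, the smallest possible). Atp5g2 made up 52.0% ± 2.4 in unstimulated cells, 45.8% ± 2.3 with JQ1, 41.9% ± 0.99 with LPS and 36.5% ± 1.4 with LPS + JQ1 (SD, n = 3), while Atp5g1 stayed between 15.4% and 21.1%. With IL-10 alone the shares of Atp5g3 (30.3% ± 2.1) and Atp5g2 (52.2% ± 1.9) overlapped those of unstimulated cells.

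**Figure D3:**
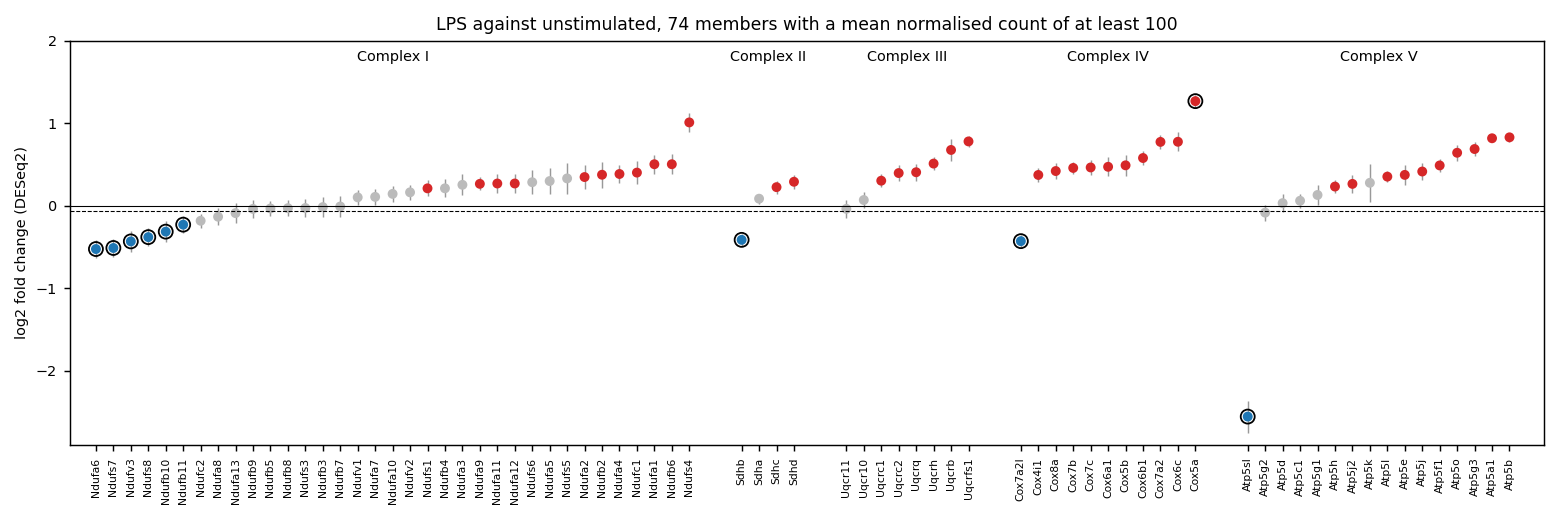
log2 fold change of LPS against unstimulated cells (DESeq2, bars are standard errors) for 74 of the 75 members that averaged 100 or more normalised counts, ordered within each complex. Red and blue mark members higher and lower at an adjusted p under 0.05, grey the others, circles the members called in the same direction in all 5 settings, and the dashed line the median of all genes (-0.07). Cox5a is the circled rise and Atp5sl the lowest point.

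JQ1 alone changed 31 of 79 tested members, 20 higher and 11 lower, beside 21.9% higher and 23.7% lower of all genes (DESeq2). The median was 0.11 over members and 0.00 over all genes. Under total-count scaling 5 members were higher and 20 lower, beside 12.2% and 33.4% of all genes. In all 5 settings 4 members rose (Ndufa12, Ndufv3, Uqcrh and Cox7a1) and 11 fell (Ndufb2, Ndufb7, Ndufb8, Ndufs1, Ndufs5, Ndufa9, Sdhb, Atp5e, Atp5g2, Atp5k and Atp5l), where all genes gave 12.1% and 25.9%.

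Of the 11 members lower with JQ1 in DESeq2, 6 were in complex I, 1 in complex II and 4 in complex V. Ndufb7, an accessory subunit of the membrane arm, was at 493, 516 and 501 normalised counts in unstimulated cells and 310, 278 and 294 with JQ1 (-0.77 ± 0.12, adjusted p = 5.3e-09). Atp5e, the epsilon subunit of the F1 central stalk, was at 684, 592 and 726 and fell to 376, 370 and 449 (-0.75 ± 0.12, adjusted p = 5.5e-09). Ndufb2 fell from 129, 137 and 135 to 73.5, 61.1 and 94.3 (-0.80 ± 0.17, adjusted p = 7.2e-06), and its exons overlap those of Adck2 on the same strand in the GENCODE vM1 annotation. For all 3 genes the groups did not overlap. Ndufs5 fell by 0.72 on the log2 scale, with expected counts that were not whole in 17 libraries.

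Ndufa12, an accessory subunit of the NADH-oxidising arm, went the other way. It was at 199.8, 203 and 194 normalised counts in unstimulated cells and at 345, 353 and 364 with JQ1 (0.83 ± 0.11, adjusted p = 7.4e-14, and 0.65 under total-count scaling). Cox7a1 was higher by 1.34 ± 0.48 (adjusted p = 0.015) at only 6.94 to 8.46 normalised counts without and 12.1 to 22.7 with JQ1. By share of the member TPM, complex III was at 9.89% ± 0.28 without and 11.1% ± 0.20 with JQ1, complex IV at 29.3% ± 0.49 and 31.3% ± 0.11, and complex V at 27.7% ± 0.64 and 25.2% ± 0.33 (SD, n = 3), with no overlap in any of the 3 (exact permutation tests, two-sided, p = 0.10, the smallest possible). Complexes I and II were lower with JQ1, also with no overlap. Complex I was at 29.4% ± 0.35 without and 28.9% ± 0.31 with JQ1, and complex II at 3.71% ± 0.035 and 3.47% ± 0.062 (SD, n = 3). The gap for complex I was narrow, from 29.06% in the highest JQ1 library to 29.14% in the lowest unstimulated library. Within complex V, Atp5e alone changed by -1.30 percentage points.

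After LPS, JQ1 again moved members in both directions. Of 80 tested members 11 were higher and 23 lower in LPS + JQ1 against LPS (DESeq2), beside 24.4% higher and 32.9% lower of all genes, and the median of members and of all genes was the same, -0.11. Under total-count scaling 41 were higher and 5 lower, beside 37.7% and 20.4% of all genes, with medians of 0.27 and 0.25. In all 5 settings 11 members rose (Ndufa12, Ndufv3, Ndufb9, Ndufb10, Ndufs8, Uqcr11, Uqcrq, Cox7a2l, Atp5d, Atp5s and Atp5sl) and 5 fell (Ndufs1, Ndufa9, Ndufb7, Uqcrfs1 and Atp5e), where all genes gave 29.6% and 23.8%. Atp5d passed without the replicate block (adjusted p = 0.045) and not with it (adjusted p = 0.055).

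Atp5e was at 844, 953 and 808 normalised counts with LPS and 398, 459 and 495 with LPS + JQ1 (-0.95 ± 0.12, adjusted p = 4.3e-14). Ndufs1 fell from 605, 558 and 659 to 352, 364 and 341 (-0.78 ± 0.10, adjusted p = 1.6e-13), below every unstimulated library. Uqcrfs1 fell from 1100, 1017 and 1022 to 691, 712 and 662 (-0.60 ± 0.07, adjusted p = 2.5e-19). In normalised counts this left Uqcrfs1 above the 602 to 614 of unstimulated cells, whereas in TPM it was at 57.9 to 65.2 with LPS + JQ1 and at 71.4 to 76.9 in unstimulated cells, below all of them. Under total-count scaling these falls were -0.57, -0.41 and -0.22, and all passed.

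Among the rises, Ndufa12 was at 228, 267 and 220 normalised counts with LPS and 426, 437 and 463 with LPS + JQ1 (0.89 ± 0.11, adjusted p = 1.1e-15). Ndufv3, the small flavoprotein-associated subunit of complex I, went from 455, 438 and 343 to 689, 603 and 650 (0.65 ± 0.13, adjusted p = 2.3e-06). Atp5sl went from 42.4, 36.2 and 27.0 to 96.1, 81.1 and 91.1 (1.35 ± 0.21, adjusted p = 3.3e-10), still below the 197 to 214 of unstimulated cells. Cox7a2l, which LPS had lowered, was at 1745, 1905 and 1842 with LPS + JQ1 (0.36 ± 0.07 against LPS, adjusted p = 1.0e-06), and Sdhb was at 828, 834 and 854 and did not pass (-0.05 ± 0.08). The comparison of LPS with unstimulated cells uses the same LPS libraries.

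**Figure D4:**
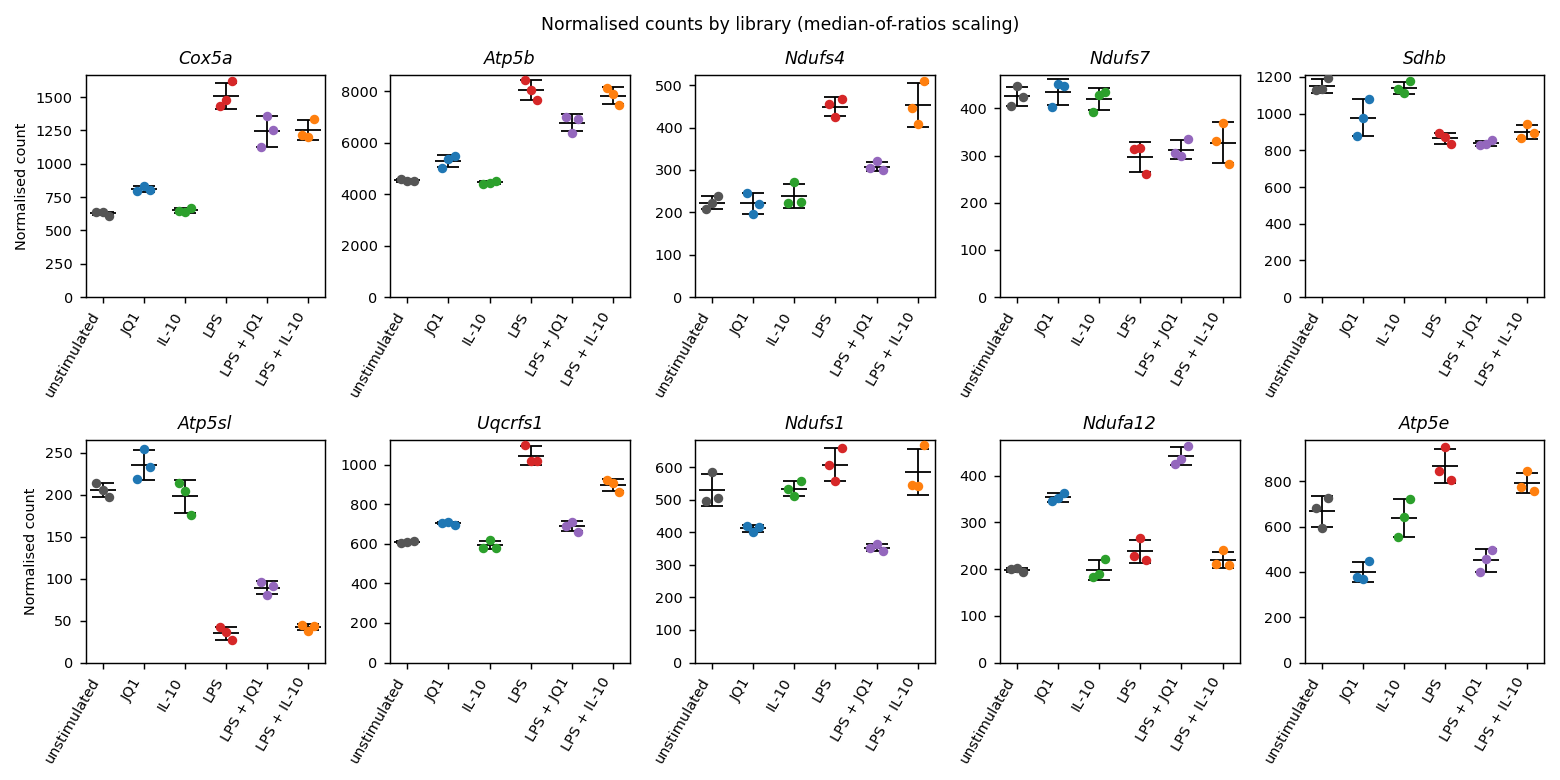
Normalised counts of 10 members in each library (points) with the group mean and SD (n = 3), with vertical axes from 0. Cox5a, Atp5b and Ndufs4 are higher and Ndufs7, Sdhb and Atp5sl lower with LPS, Ndufa12 is higher and Atp5e and Ndufs1 lower with JQ1 both without and with LPS, and Uqcrfs1 is higher with JQ1 alone (698 to 712) and lower with JQ1 after LPS. Cox5a is also higher under total-count scaling, where Atp5b is at -0.10 and Ndufs4 at 0.08.

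The effects of JQ1 without and with LPS come from different libraries and could be set side by side. Over the 75 members that averaged 100 or more normalised counts, Pearson's r of both log2 fold changes was 0.69 and Spearman's rho 0.69, as a description across genes, which are not independent replicates and share the library scaling. Of the members called in either comparison, 18 were called in both, which is 58.1% of the 31 called without LPS and 52.9% of the 34 called with LPS. Over all genes the calls in both were 75.3% of those without LPS and 57.3% of those with LPS, of which 39.1% were higher in both, 47.2% lower in both and 13.6% opposite. Of the 18 members, 6 were higher in both (Ndufa12, Ndufv3, Ndufb9, Uqcr11, Uqcrq and Cox7a2l), 9 lower in both (Ndufb2, Ndufb7, Ndufb8, Ndufs1, Ndufs5, Ndufa9, Atp5e, Atp5g2 and Atp5l), and 3 opposite (Cox5a, Atp5b and Uqcrfs1). With JQ1 after LPS, complex III was at 10.8% to 11.2% of the member TPM against 9.73% to 10.2% with LPS, and complex V at 26.5% ± 0.63 against 29.0% ± 0.81 (SD, n = 3, no overlap, exact permutation tests, two-sided, p = 0.10, the smallest possible). Complex I was at 26.8% ± 0.26 against 25.3% ± 0.29, also with no overlap. Its share was thus higher with JQ1 after LPS, whereas it was lower with JQ1 alone.

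**Figure D5:**
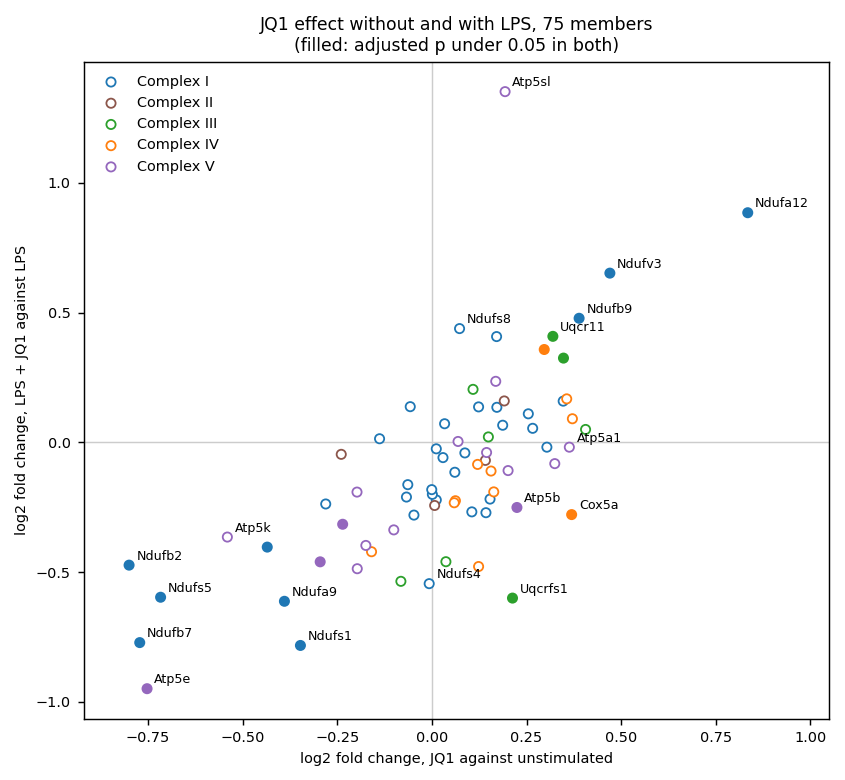
log2 fold change of 75 members in JQ1 against unstimulated cells (horizontal) and in LPS + JQ1 against LPS (vertical), from DESeq2, coloured by complex and filled where the adjusted p was under 0.05 in both. Ndufa12 lies at the upper right, Atp5e and Ndufb7 at the lower left, and Uqcrfs1, Cox5a and Atp5b in the lower right quadrant.

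Whether the effect of JQ1 differed with and without LPS was tested as an interaction. Of 79 tested members, 3 had a positive and 20 a negative interaction (DESeq2), beside 17.7% and 23.8% of all genes. The median was -0.18 over members and -0.05 over all genes. Under total-count scaling 50 were positive and 1 negative, beside 44.6% and 7.65% of all genes, with medians of 0.38 and 0.51. In all 5 settings Uqcrfs1 was negative and Ndufs8, Atp5sl and Atp5s were positive, where all genes gave 7.84% and 19.2%. The smallest adjusted p-values were those of Uqcrfs1 (-0.81 ± 0.09, adjusted p = 3.8e-17), Atp5a1 (-0.38 ± 0.05, adjusted p = 2.2e-11) and Atp5b (-0.48 ± 0.08, adjusted p = 7.0e-09). For Uqcrfs1 the total-count value was -0.26 (adjusted p = 0.012), and for Atp5a1 and Atp5b the direction turned, to 0.17 and 0.08.

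IL-10 alone changed none of the 79 tested members at an adjusted p under 0.05 in DESeq2, where 1.8% of all genes were higher and 1.01% lower. At an unadjusted p under 0.05 there was 1 member, and edgeR and limma on TPM also called 0. The members' log2 fold changes ran from -0.39 to 0.12. After LPS, 5 of 77 tested members were lower with IL-10 and 0 higher, beside 8.81% lower and 8.38% higher of all genes, and edgeR called 2 lower and 0 higher and limma on TPM 0 lower and 3 higher. At an unadjusted p under 0.05 there were 5 members in DESeq2.

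The falls with IL-10 included Cox5a, Uqcrfs1, Atp5a1 and Uqcrh. Cox5a went from 1432, 1478 and 1618 normalised counts with LPS to 1215, 1204 and 1336 with LPS + IL-10 (-0.27 ± 0.08, adjusted p = 0.0045), Uqcrfs1 from 1100, 1017 and 1022 to 923, 907 and 865 (-0.22 ± 0.06, adjusted p = 0.0049), and Atp5a1 from 7771, 7935 and 8046 to 7136, 7129 and 7039 (-0.16 ± 0.04, adjusted p = 0.00048). Uqcrh fell by 0.23. None of the 5 passed when the LPS and LPS + IL-10 libraries were fitted alone, when any mouse was left out, or under total-count scaling of DESeq2. The interaction of LPS with IL-10 called 0 of 75 members in DESeq2 (4.0% positive and 3.44% negative of all genes, 4 members at an unadjusted p under 0.05, 0 in edgeR and 0 in limma). With the replicate block Cox5a passed (-0.32, adjusted p = 0.040, against 0.052 without).

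Set directly against each other after LPS, JQ1 and IL-10 left different levels of some members, in DESeq2 at smaller shares than over all genes in both directions. Of 80 tested, 14 were higher and 22 lower in LPS + JQ1 than in LPS + IL-10, beside 23.8% and 31.6% of all genes, and under total-count scaling 35 were higher and 6 lower, beside 34.6% and 21.9%. Ndufa12 was 1.01 ± 0.11 higher on the log2 scale (adjusted p = 1.4e-19), with 426 to 463 against 209 to 240 normalised counts. Atp5e was lower by 0.82 on the log2 scale, Ndufb7 by 0.78 and Ndufs1 by 0.74, and these directions were the same under total-count scaling. Complex III made up 10.8% to 11.2% of the member TPM against 9.45% to 9.83%, and complex V 26.5% ± 0.63 against 29.3% ± 0.64 (SD, n = 3), with no overlap. Complex I was at 26.8% ± 0.26 against 25.5% ± 0.57, also with no overlap, whereas complexes II and IV overlapped.

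Of the 47 listed assembly factors, which insert cofactors and build the complexes but are no part of them, 13 were higher and 18 lower with LPS (median -0.20, all genes -0.07), beside 31.6% and 32.9% of all genes. In LPS + JQ1 against LPS 17 were higher and 13 lower, beside 24.4% and 32.9% of all genes. Sco1, a copper chaperone of complex IV, was higher by 2.63 and Cox17, which passes copper to it, by 2.24, while Sco2, the paralogue of Sco1, was at -2.43 and Surf1, also needed for complex IV, at -0.97. Sco1 and Cox17 stayed positive and Sco2 and Surf1 negative under total-count scaling (1.70, 1.31, -3.36 and -1.90). Cycs, the cytochrome c that links complexes III and IV, rose by 2.97 ± 0.11 with LPS (2.05 under total-count scaling) and fell by 1.12 in LPS + JQ1 against LPS. It belongs to the 8 listed subunits and carriers whose symbols lie outside the rule, of which 4 were higher and 1 lower with LPS. Of 16 TCA cycle genes, 9 were higher and 4 lower with LPS, and 5 higher and 8 lower in LPS + JQ1 against LPS. Under total-count scaling the LPS counts of these 3 lists turned to 4 higher and 38 lower, 1 and 6, and 0 and 14, beside 15.2% and 60.5% of all genes. The counts in LPS + JQ1 against LPS became 22 higher and 9 lower for the assembly factors and 8 and 1 for the TCA cycle, beside 37.7% and 20.4% of all genes.

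Of 11 tested regulators of mitochondrial biogenesis, 7 were higher and 3 lower with LPS, and 4 higher and 7 lower in LPS + JQ1 against LPS, beside the same shares of all genes as above. After scaling by total counts they were 3 and 4 with LPS, where the median turned from 0.81 to -0.12, and 4 and 4 in LPS + JQ1 against LPS. Nrf1 and Gabpa, the transcription factor genes whose products are known to bind promoters of respiratory subunits, were at 1.03 and 0.94 with LPS (0.10 and 0.01 under total-count scaling), and at -0.44 and -1.09 in LPS + JQ1 against LPS (-0.06 and -0.72). Gabpb1, the partner of Gabpa, was at 1.82 and -0.97, and its direction was the same under total-count scaling. Tfb1m, Tfb2m and Polrmt, which serve mitochondrial transcription or ribosomes, were lower with LPS, at -1.03, -0.66 and -0.91, and higher in LPS + JQ1 against LPS, at 1.48, 0.73 and 0.97. Both comparisons use the same LPS libraries.

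Promoters of the members were read from RefSeq on the mouse build GRCm38.p6, in a window from 250 bases before to 50 bases after each start, and 69 of the 84 members had at least 1 window. All 84 were matched by name, 81 by symbol and 3 by an older name. Both strands were searched for GCGCANGCG, the core of the motif of NRF1, for CCGGAAG, that of ETS factors such as GABPA, and for AAGATGGCG, that of YY1. The NRF1 motif lay in 20 of 69 members (29.0%) against 7.03% of the 27025 genes of the table, the ETS motif in 16 (23.2%) against 9.93% and the YY1 motif in 8 (11.6%) against 1.64%. By complex, the NRF1 motif was in 8 of 32 genes of complex I, 2 of 3 of complex II, 2 of 5 of complex III, 1 of 13 of complex IV and 7 of 16 of complex V. Of the 30 members with a window that were higher with LPS in DESeq2, 8 held the NRF1 motif and 10 the ETS motif, and of the 10 that were lower 2 and 2. Of the 10 lower with JQ1 alone, 4 held the NRF1 motif and 5 the ETS motif, and of the 17 higher 4 and 3. A match of letters is a description of the window and not a binding site.

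The following stretches are shown because they hold these matches before the start of members described above, with the match in capitals and the strand of the gene. Sdha (chr13:74350241-74350358, minus strand) and Sdhd (chr9:50603869-50603948, minus strand) are the complex II promoters with most matches, NRF1 and ETS motifs among them. Atp5e (chr2:174464177-174464223, minus strand) and Ndufb7 (chr8:83566718-83566757, plus strand) fell with JQ1 and Uqcr11 (chr10:80406861-80406907, minus strand) rose, and all 3 hold an ETS motif.
Sdha: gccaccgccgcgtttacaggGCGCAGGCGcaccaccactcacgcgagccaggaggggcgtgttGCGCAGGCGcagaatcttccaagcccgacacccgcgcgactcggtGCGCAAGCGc
Sdhd: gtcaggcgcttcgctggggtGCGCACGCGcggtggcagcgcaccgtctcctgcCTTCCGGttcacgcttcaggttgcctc
Atp5e: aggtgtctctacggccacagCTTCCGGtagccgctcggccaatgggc
Ndufb7: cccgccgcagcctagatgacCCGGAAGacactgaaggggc
Uqcr11: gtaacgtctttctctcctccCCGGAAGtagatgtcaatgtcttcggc

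On mm9, the build of the files, GENCODE vM1 places Cox5a at chr9:57369039-57380231, Atp5b at chr10:127520329-127527447, Ndufs4 at chr13:115078003-115178302, Sdhb at chr4:140517118-140535108, Atp5sl at chr7:26404433-26410570, Ndufa12 at chr10:93661700-93684188 and Atp5e at chr2:174286573-174289606. The 83 members with a single annotated gene were spread over 19 chromosomes. Exons of 18 of them overlap a gene on the opposite strand, among them Cox5a, Uqcrc2 and Ndufs1, and those of 2, Ndufb2 and Atp5o, a gene on the same strand. Expected counts were not whole in at least 1 library for 8 members (Atp5f1, Atp5j, Cox7c, Ndufa7, Ndufa13, Ndufs1, Ndufs5 and Uqcrc2), for which reads were shared with another gene.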

How the data were processed

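RNA from 18 libraries, 3 per group, was sequenced by the authors from stranded, ribosomal RNA-depleted libraries. Per the labels and methods, reads were filtered with TagDust, aligned with STAR to mm9 and quantified with RSEM 1.2.31. The deposited expected counts per gene are RSEM estimates, which divide a read that fits several genes, and the deposited TPM values were made by the authors with RSEM from the same reads, scaled to transcript length and to a fixed sum. Whether RSEM used the strand is not given in the sources used here.

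Expected counts were rounded and fitted with DESeq2 1.42.0 (R 4.3.3) over all libraries with group as the factor, size factors by median of ratios, Wald tests and Benjamini-Hochberg adjustment over all genes tested, with an adjusted p under 0.05 as the call. Interactions were contrasts of contrasts. Alternatives were TMM factors, total-count scaling, edgeR 4.0.16, limma 3.58.1 on log2(TPM + 1) for genes of at least 1 TPM in 3 libraries, a minimum of 10 counts in 3 libraries, the compared groups alone, a replicate block, a lane term and each mouse left out. Calls shared by 5 settings were counted as an alternative chosen after seeing the data. Shares and the ratio of Sdhb to Sdhd were compared by exact permutation tests, which treated the libraries as unpaired and did not use the pairing by mouse. The 3 mice pair the libraries by number, since the labels describe matched samples of the same animals. Deviations of same-numbered libraries correlated at 0.12, 0.11 and 0.15 for LPS, 0.18, 0.097 and 0.080 for JQ1 and 0.29, 0.18 and 0.078 for IL-10 against unstimulated cells, at 0.20, 0.28 and 0.47 for LPS + IL-10 and 0.070, -0.067 and -0.12 for LPS + JQ1 against LPS, and at 0.037, -0.054 and -0.12 for LPS + JQ1 against LPS + IL-10. Libraries of replicate 1 shared a lane, as did those of replicate 3, and those of replicate 2 were split by LPS. Named members were, per comparison and complex, up to 2 called members furthest in each direction with at least 100 normalised counts and the same direction in all 3 pairs, up to 3 with the smallest adjusted p per interaction, 16 key subunits, members with paralogues and members that are no subunits. Other members were named after their values were seen. Counts and medians include every member, but the values of 1 member are not reported here. The members and lists were chosen with earlier results of these data known. Totals of 6781952 to 28289498 counts per library limit the precision for low genes, and floors cover counting error only. Figures were drawn with matplotlib 3.10.9.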

Additional observations from a re-analysis of the deposited data

Results flagged for a closer look

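The effect of JQ1 differed between cells with and without LPS, by the interaction term of DESeq2, in 23 of 79 tested members, 3 positive and 20 negative. Over all genes 17.7% were positive and 23.8% negative, so the share of negative calls was near that of all genes and the share of positive calls below it. On the log2 scale the members with a lower effect with LPS included Uqcrfs1 (-0.81), Cox5a (-0.65), Cox6c (-0.60), Ndufs4 (-0.54), Uqcrb (-0.50), Atp5b (-0.48), Uqcrc2 (-0.45), Ndufs1 (-0.44), Ndufb3 (-0.41), Atp5f1 (-0.41), Atp5a1 (-0.38), Ndufa1 (-0.37), Uqcrh (-0.36), Cox7c (-0.35), Atp5g3 (-0.31), Cox6b1 (-0.29), Cox7b (-0.28), Cox4i1 (-0.27) and Sdha (-0.21). The effect was higher with LPS in Ndufs8 (0.37), Atp5sl (1.16) and Atp5s (1.81). Of these, Uqcrfs1, Ndufs8, Atp5sl and Atp5s were called in the same direction in all 5 settings, while under total-count scaling 50 members were called positive and 1 negative, and the named members with a positive sign there included Atp5a1 (0.17), Atp5b (0.078), Atp5g3 (0.24), Cox4i1 (0.29), Cox6b1 (0.26), Cox7b (0.27), Ndufs1 (0.12), Sdha (0.34) and Uqcrc2 (0.10). Ndufb3 passed without the replicate block (adjusted p = 0.049) and not with it (0.053).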

How the results depend on the processing

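The scaling of the libraries decided the direction of many members. Under total-count scaling, the direction for LPS against unstimulated cells turned in Atp5a1 (-0.11), Atp5b (-0.10), Atp5g3 (-0.24), Cox4i1 (-0.56), Cox6a1 (-0.46), Cox6b1 (-0.35), Cox6c (-0.15), Cox7a2 (-0.15), Cox7b (-0.47), Cox8a (-0.51), Ndufa4 (-0.54), Ndufs1 (-0.72), Sdhc (-0.70), Sdhd (-0.64), Uqcrb (-0.25), Uqcrc1 (-0.62), Uqcrc2 (-0.53) and Uqcrfs1 (-0.15). Under total-count scaling, the direction for JQ1 against unstimulated cells turned in Sdha (-0.036). Under total-count scaling, the direction for LPS + JQ1 against LPS turned in Atp5b (0.13), Atp5c1 (0.038), Cox5a (0.10), Cox6b1 (0.14) and Sdhc (0.13). Under total-count scaling, the direction for LPS + JQ1 against LPS + IL-10 turned in Atp5b (0.072) and Sdhc (0.053). Under total-count scaling, the direction for the interaction of LPS with JQ1 turned in Atp5a1 (0.17), Atp5b (0.078), Atp5g3 (0.24), Cox4i1 (0.29), Cox6b1 (0.26), Cox7b (0.27), Ndufs1 (0.12), Sdha (0.34) and Uqcrc2 (0.10). With limma on log2(TPM + 1), the direction for LPS against unstimulated cells turned in Atp5g3 (-0.090), Cox4i1 (-0.41), Cox6a1 (-0.32), Cox6b1 (-0.21), Cox6c (-0.025), Cox7a2 (-0.0032), Cox7b (-0.30), Cox8a (-0.37), Ndufa4 (-0.40), Ndufs1 (-0.56), Sdhc (-0.55), Sdhd (-0.48), Uqcrb (-0.10), Uqcrc1 (-0.47) and Uqcrc2 (-0.37). With limma on log2(TPM + 1), the direction for JQ1 against unstimulated cells turned in Sdha (-0.063). With limma on log2(TPM + 1), the direction for LPS + JQ1 against LPS turned in Atp5b (0.052), Cox5a (0.014), Cox6b1 (0.056) and Sdhc (0.056). With limma on log2(TPM + 1), the direction for the interaction of LPS with JQ1 turned in Atp5a1 (0.13), Atp5b (0.032), Atp5g3 (0.17), Cox4i1 (0.23), Cox6b1 (0.19), Cox7b (0.21), Ndufs1 (0.090), Sdha (0.30) and Uqcrc2 (0.049). Under total-count scaling and limma the members higher and lower were 1 and 71, and 1 and 65, with LPS, 5 and 20, and 4 and 20, with JQ1, 41 and 5, and 38 and 6, in LPS + JQ1 against LPS, and 35 and 6, and 23 and 11, in LPS + JQ1 against LPS + IL-10. In LPS + JQ1 against LPS, TMM factors and edgeR each gave 19 higher. In LPS + IL-10 against LPS, limma gave 3 higher and 0 lower, edgeR 2 lower, and total-count scaling and the compared groups alone 0 lower. The interaction of LPS with JQ1 called 12 members with TMM factors, 51 with total-count scaling, 13 with edgeR and 39 with limma, against 23. With the replicate block and with the lane term, the interaction of LPS with IL-10 called 1 member each, Cox5a, and the block took the calls of Atp5d in LPS + JQ1 against LPS (adjusted p = 0.055) and of Ndufb3 in the interaction with JQ1 (adjusted p = 0.053). Leaving out each mouse, or unstimulated replicate 2 (an alternative chosen after seeing the data), gave 31 to 37 higher and 7 to 9 lower with LPS, 10 to 18 and 6 to 11 with JQ1, 7 to 11 and 16 to 27 in LPS + JQ1 against LPS, 0 and 0 to 5 in LPS + IL-10 against LPS, 8 to 15 and 16 to 21 in LPS + JQ1 against LPS + IL-10, and 9 to 15 calls for the interaction with JQ1. With Ndufa4 counted in complex IV and the 3 non-subunits left out, also chosen after seeing the data, the differences in share of complexes I, II and IV with LPS and of complexes III and V with JQ1 kept their directions. Fewer libraries entered those fits, and the causes of the other changes were not tested.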
